A study of Mus musculus with 6 samples.

Results

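The transcriptome of wild-type tail tendon was described from the 3 wild-type (WT) libraries of a bulk RNA-seq experiment that holds 6 libraries in all. The study asked what the loss of *Mkx* (Mohawk, a homeobox transcription factor of tendon) changes in tendon, and the other 3 libraries came from *Mkx*-/- mice, which carry no functional copy of that gene. Those libraries were not compared here, and no test between groups was made. The WT mice were C57BL/6 and, per the labels, 3 weeks old (the article gives another age), they received no treatment, and the RNA was total RNA of minced whole tail tendon, sequenced on an Ion Proton. The members were chosen by their genotype label and no measured value was used. The labels number the replicates from 1 to 3 but do not say that each came from a separate mouse. Replicate 3 differed from the others in sex-linked genes, as given at the end, and so held RNA of other animals, while the spread between replicates 1 and 2 may be technical.

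Tendon is a rope of type I collagen fibrils laid down by tenocytes, elongated fibroblasts that lie in rows between the fibres. Type I collagen is a triple helix of pro-alpha-1(I) and pro-alpha-2(I) chains, the products of *Col1a1* and *Col1a2*. Each chain is secreted, trimmed, assembled into fibrils whose width is set by minor collagens and small leucine-rich proteoglycans, and crosslinked by lysyl oxidase. Around the fascicles lie sheaths with vessels, nerves and macrophages, so that RNA of a whole tendon holds more than tenocyte RNA. In bulk RNA, few cells of a type and little RNA per cell cannot be told apart.

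Type I collagen RNA made up 40.2% ± 4.05 (SD, n = 3) of all counts, and the coding exons that these counts come from repeat a short unit. In the triple helix each chain repeats a triplet of residues that starts with glycine, so the exons of the helix are built from blocks of 9 bases that start with a glycine codon. The sequences of coding exons 8 and 9 of both genes are printed below, with the GG of each glycine codon (GGN, in frame) in capitals. They are examples picked to show the repeat. In each gene they were the first 2 in-frame exons of 54 bases with a glycine codon in every block of 9 bases. They were read from the mm9 genome on the plus strand, exon 8 of *Col1a2* at chr6:4465481-4465534, exon 9 of *Col1a2* at chr6:4465629-4465682, exon 8 of *Col1a1* at chr11:94801218-94801271 and exon 9 of *Col1a1* at chr11:94801432-94801485.
*Col1a2* coding exon 8: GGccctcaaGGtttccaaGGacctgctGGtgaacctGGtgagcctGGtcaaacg
*Col1a1* coding exon 8: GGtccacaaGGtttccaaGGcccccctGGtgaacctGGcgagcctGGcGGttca
*Col1a2* coding exon 9: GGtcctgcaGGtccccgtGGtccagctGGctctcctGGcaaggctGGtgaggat
*Col1a1* coding exon 9: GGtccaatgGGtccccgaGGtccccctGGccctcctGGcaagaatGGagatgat
Exon 8 held 6 glycine codons in *Col1a2* and 7 in *Col1a1*, and exon 9 held 6 in each gene. A count of at least 6 was set by the way the exons were picked. Set base against base, the exons of the 2 genes shared 42 of 54 bases in exon 8 and also 42 of 54 in exon 9. The shared bases include the GG of these glycine codons.

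Most, but not all, inner coding exons of both genes had a length that fits this block of 9 bases. Of the inner coding exons, 21 of 49 (42.9%) in *Col1a1* and 24 of 50 (48.0%) in *Col1a2* were 54 bases long, and 87.8% and 90% had a length that is a multiple of 9. The other fibrillar collagen genes were alike, with 45.3% (*Col5a1*) to 56.9% (*Col24a1*) of inner coding exons at 54 bases. The comparison was with 10739 genes at 1 CPM (counts scaled to the depth of a library) or more that were not collagen genes. In these, 451 of 112624 inner coding exons (0.400%) were 54 bases long and 13.4% were a multiple of 9. Weighting each gene's coding sequence by its level per length, 14.8%, 16.8% and 16.5% of all codons in the 3 libraries were glycine codons, a mean of 16.0% ± 1.04. Without the 37 collagen genes the share was 6.87%, and the median gene had 6.31%. Glycine and proline codons together made up 27.5% ± 1.66 of the pool with the collagen genes and 13.1% without them. These shares assume that every transcript of a gene is the annotated coding sequence used here.

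The libraries held 12651140, 11798036 and 14160301 counts in replicates 1, 2 and 3. Of 44788 gene symbols, 23593 had at least 1 count in a WT library and 13772 had a mean of 1 CPM or more, where CPM was scaled with trimmed mean of M-values (TMM) factors. Replicate 1 stood apart from the others. Across 13735 genes the log2 CPM of replicates 2 and 3 correlated with a Pearson r of 0.978, against 0.955 for replicates 1 and 2 and 0.952 for replicates 1 and 3 (descriptions across genes, which are not independent, in libraries that share the same few abundant genes). Values of replicate 1 are therefore given apart wherever they move a result. Replicates 2 and 3 had a chi-square of 8.22 per degree of freedom, where sampling noise alone gives about 1, so no library was a second copy of another.

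The 5 marker genes of tendon were all present. *Col1a2* stood at 204324, 247771 and 255224 CPM in replicates 1, 2 and 3, and *Col1a1* at 119574, 205768 and 182866. For both genes replicate 1 was the lowest library. *Sparc*, which encodes osteonectin, a collagen-binding glycoprotein, stood at 58325, 58099 and 65899 CPM. *Fmod*, which encodes fibromodulin, a small proteoglycan on the fibril surface, had 15773, 14589 and 14337 CPM. *Mkx* itself had 131, 124 and 124 CPM, a mean of 126 ± 4.45. The coefficient of variation (CV, the SD divided by the mean) was 5.15% for *Fmod* and 3.53% for *Mkx*, against 26.4% for *Col1a1*. These CVs depend on the scaling. As shares of all counts they were 13.6% for *Fmod*, 12.0% for *Mkx* and 19.5% for *Col1a1*.

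Counts rise with the length of a transcript, so a CPM value says how much of the pool a gene takes and not how many molecules it has. Levels of different genes were therefore compared per length, as counts divided by the summed exon length of the gene and scaled to the same total in each library (TPM). On this scale *Mkx* had 164 ± 15.7 TPM, higher than 96.6% of the 18578 symbols with a count and a length.

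The RNA pool was dominated by 3 genes. *Col1a2* took 22.4%, 23.5% and 24.5% of the counts of replicates 1, 2 and 3, a mean of 23.5% ± 1.05. *Col1a1* took 13.1%, 19.5% and 17.6%, a mean of 16.7% ± 3.27. *Sparc* took 6.40%, 5.50% and 6.33%, a mean of 6.08% ± 0.50. The 2 collagen I genes together were at 35.6% in replicate 1 and at 43.0% and 42.1% in replicates 2 and 3, so their share was lowest in replicate 1, and the low value was carried by *Col1a1* more than by *Col1a2*. With *Sparc* the 3 genes made up 46.3% ± 3.75 of the counts. Per length they made up 26.1% ± 2.50.

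The concentration fell off steeply after these genes. The 10 most counted genes of each library held 51.0% of counts on average, the top 20 held 54.2%, the top 100 held 62.1% and the top 1000 held 77.0%. Reaching 50% of the counts took 5 genes in replicate 2, 5 in replicate 3 and 19 in replicate 1. Reaching 90% took 3974, 3420 and 3515 genes in replicates 1, 2 and 3. By level, 4 genes had a mean of 10000 CPM or more, 46 had 1000 or more, 837 had 100 or more and 7690 had 10 or more. The 46 genes at 1000 CPM or more held 58.1% of counts, the 791 between 100 and 1000 held 17.2%, the 6853 between 10 and 100 held 21.9%, and the 6082 between 1 and 10 held 2.66%.

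**Figure D1:**
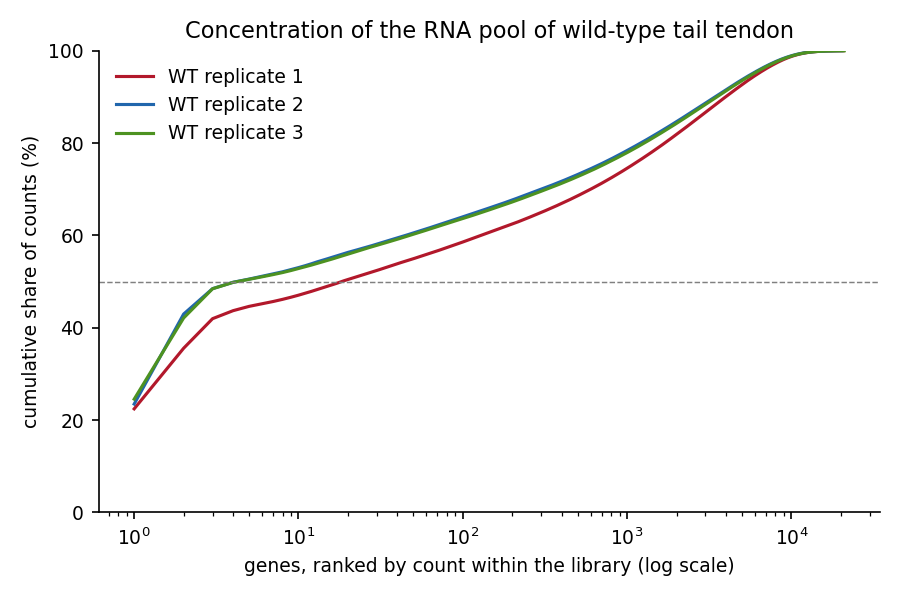
Cumulative share of counts (%, y axis) against genes ranked by count within each library (x axis, log scale), with 1 line for each of the 3 WT libraries and a dashed line at 50%. The lines of replicates 2 and 3 cross 50% at 5 genes, and the line of replicate 1 runs below them and crosses at 19 genes.

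After the first 4 genes, the ranking by mean CPM ran on through matrix genes with few exceptions. *Angptl7*, a secreted angiopoietin-like protein, came next with 8454, 6428 and 5765 CPM, highest in replicate 1. It was followed by *Col6a1* (6422 ± 1038 CPM), *Col6a2* (4619 ± 837), *Serpinf1* (4336 ± 295), *Thbs4* (4240 ± 595) and *Col3a1* (4218 ± 655). *Serpinf1* encodes pigment epithelium-derived factor, an inhibitor of vessel growth that binds collagen, and *Thbs4* encodes thrombospondin-4, a glycoprotein of the tendon matrix. Ranks 12 to 20 were taken by *Dcn* (3981 ± 376), *Col11a2* (3667 ± 740.3), *Rn18s-rs5* (3639 ± 1196), *Lox* (3561 ± 612), *Gsn* (3554 ± 736), *Col6a3* (3027 ± 334), *Fndc1* (2672 ± 629.9), *Eef2* (2562 ± 303) and *COX1* (2249 ± 347). Among these genes, *Gsn* encodes the actin-severing protein gelsolin, *Eef2* encodes a translation elongation factor and *COX1* is mitochondrial. *Rn18s-rs5* is a ribosomal RNA-related sequence, whose value depends on how ribosomal RNA was removed and counted.

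Per length the order changed. *Col1a1* had 105860 ± 22643 TPM, *Col1a2* 80093 ± 5204 and *Sparc* 74726 ± 5483. The order of the 2 collagen genes rested on the length used, since the exons of *Col1a2* cover 12145 bases when all its transcripts are joined and 5347 bases in the longest single transcript. The ratio of *Col1a1* to *Col1a2* was 1.32 ± 0.227 with the joined exons and 0.641 ± 0.111 with the longest transcript, so no order was drawn between them. The next genes included *Fmod* (18714 ± 2087 TPM), *Angptl7* (13323 ± 3530), *Dcn* (8543 ± 1266), *Serpinf1* (7600 ± 302), *Col6a1* (6019 ± 648) and *COX1* (6010 ± 750.0). The values of *Sparc*, *Fmod*, *Angptl7* and *Dcn* did not overlap, and they stood in this order in all 3 libraries with either length.

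Ranks 11 to 20 per length were *Thbs4* (5313 ± 455 TPM), *CYTB* (5298 ± 758), *Gsn* (4730 ± 1251), *Mgp* (4070 ± 739.9), *1500015O10Rik* (3987 ± 393), *Pmp22* (3605 ± 412), *ND1* (3430 ± 499.7), *Eef2* (3412 ± 223), *Eef1a1* (3334 ± 43.8) and *Lox* (3162 ± 726). Short transcripts moved up on this scale. *Mgp*, which encodes the calcification inhibitor matrix Gla protein, was at rank 87 by CPM and at rank 14 per length. Among the 20 pairs of neighbours that start with the 20 highest genes, 5 kept their order in all 3 libraries, and in 4 of those the ranges of the 3 libraries did not overlap. From *Col6a1* to *Lox*, neighbouring genes did not differ beyond the spread of the libraries.

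**Figure D2:**
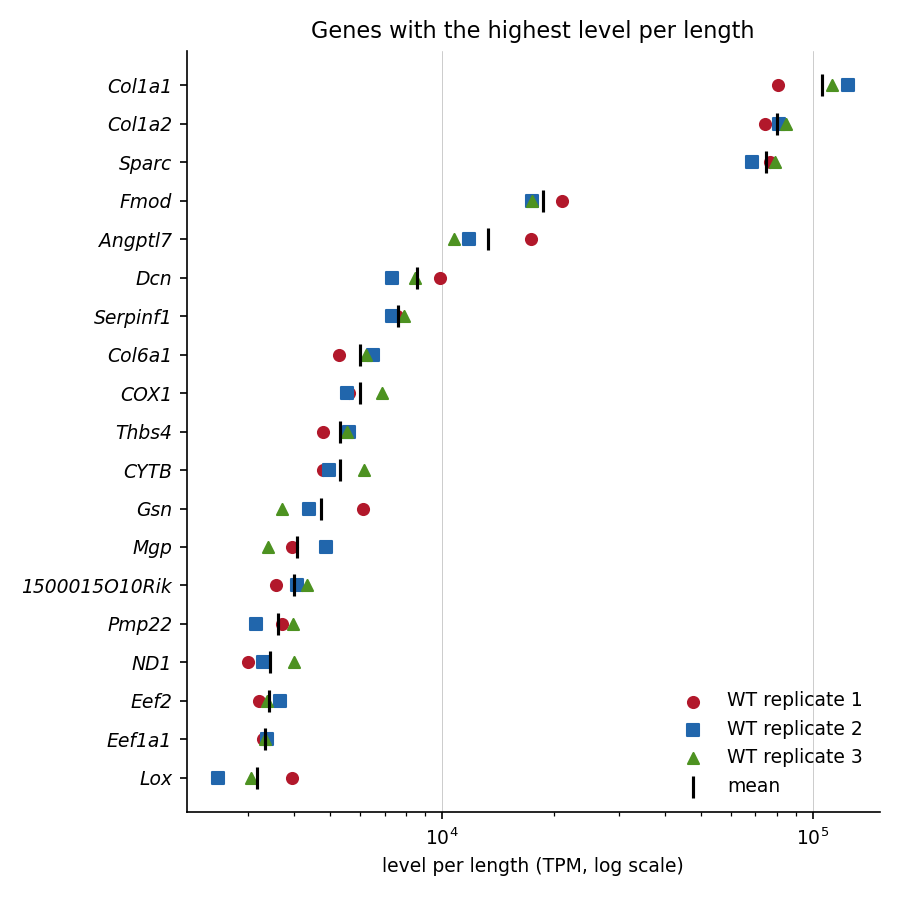
Level per length (TPM, x axis, log scale) of 19 of the 20 genes with the highest mean, with 1 point for each of the 3 WT libraries and a vertical tick for the mean. *Col1a1*, *Col1a2* and *Sparc* lead, a gap separates them from *Fmod*, and most genes from *Col6a1* on overlap with their neighbours.

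Genes were then grouped into classes by role, with lists of gene symbols. Some genes belong to more than 1 class, so the shares are not separate. *Col11a2*, *Comp* and *Col2a1* count as matrix and as chondrocyte markers, and *Serpinh1* and *P4hb* as matrix and as housekeeping. The receptor class includes surface markers of tendon cells, and the signalling class includes glucocorticoid and fasting response genes. The matrix class held 56.9% ± 3.28 of all counts over 233 symbols. Housekeeping genes held 3.22% ± 0.0927 over 274 symbols and markers of other cell types 1.77% ± 0.0468 over 330. The latter includes 0.510% ± 0.0611 from the chondrocyte list, led by *Col11a2*. Signalling genes held 1.40% ± 0.212 over 210, receptors 1.24% ± 0.0797 over 166 and transcription factors 0.565% ± 0.0570 over 189. Per length, the median gene was at 62.0 TPM among matrix genes, 56.1 among housekeeping genes, 19.7 among receptors, 11.8 among transcription factors, 10.7 among signalling genes and 3.99 among markers of other cells. The median of all symbols with a count and a length was 7.74 TPM. At 1 CPM or more stood 207 of 233 matrix symbols, 266 of 274 housekeeping symbols, 150 of 166 receptors, 153 of 189 transcription factors, 143 of 210 signalling genes and 183 of 330 markers of other cells. Of all 44788 symbols, 13772 reached that level.

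**Figure D3:**
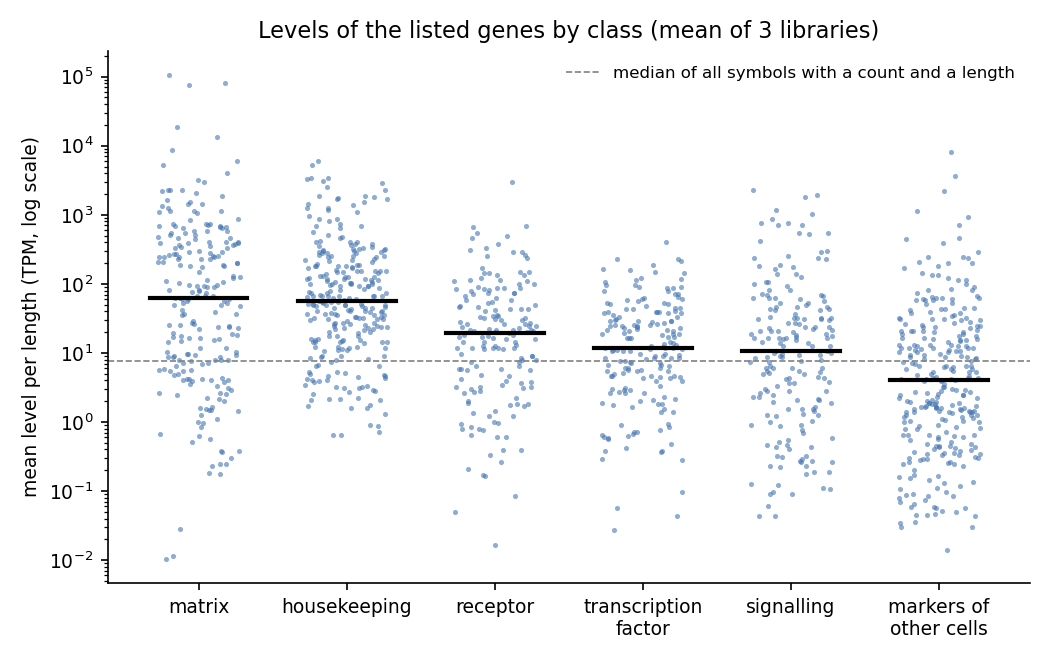
Mean level per length (TPM, y axis, log scale) of each gene with a count and a length in 6 classes, with a black bar for the median of each class and a dashed line for the median of all symbols (7.74 TPM). The medians fall from 62.0 TPM for matrix genes to 3.99 TPM for markers of other cell types, and the genes above 10000 TPM are all matrix genes.

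Within the matrix, the fibrillar collagens, which form the fibril itself, summed to 416579 ± 72440 CPM. Their sum was 333561 CPM in replicate 1, and 466957 and 449219 in replicates 2 and 3. All 11 genes of the family were at 1 CPM or more, but their levels spanned more than 4 orders of magnitude. Per length *Col11a2* had 2208 ± 333 TPM, *Col3a1* 2076 ± 269, *Col11a1* 507 ± 65.7, *Col2a1* 463 ± 139.9, *Col5a1* 329 ± 45.4, *Col5a2* 284 ± 22.2 and *Col5a3* 179 ± 12.9. *Col27a1* (3.12 ± 0.182 TPM) and *Col24a1* (2.01 ± 0.290) were the lowest. Type V and XI collagens are the minor fibrillar collagens that nucleate fibrils, type III is the collagen of thin fibrils, and type II is best known from cartilage.

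For *Col6a1* to *Col6a2* and for *Col11a1* to *Col11a2*, the ratio between chains varied less over the libraries, relative to its mean, than the level of either chain. Other pairs did not share this. Per length, the ratio of *Col1a1* to *Col1a2* varied more than *Col1a2*, and that of *Col5a1* to *Col5a2* more than *Col5a2*. For *Col6a1* to *Col6a3* it depended on the scaling of *Col6a3*. *Col1a1* exceeded *Col3a1* by 39.1, 52.9 and 61.9 times per length, a mean of 51.3 ± 11.5. *Col11a1* stood at 0.231 ± 0.0208 times *Col11a2*, with 0.229, 0.211 and 0.252 in the 3 libraries. *Col6a1*, *Col6a2* and *Col6a3* encode the chains of type VI collagen, a beaded filament around cells. The ratio of *Col6a1* to *Col6a2* was 2.71, 2.61 and 2.60, a mean of 2.64 ± 0.0620, although *Col6a1* itself ranged from 5248 CPM in replicate 1 to 7222 in replicate 2. With the longest transcript this ratio was 1.67 ± 0.0392. *Col6a1* exceeded *Col6a3* by 5.75 ± 0.316 times, or 4.64 ± 0.255 with the longest transcript. *Col5a1* to *Col5a2* was 1.16 ± 0.174 with joined exons and 0.812 ± 0.121 with the longest transcript, so the order of this pair was not settled.

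Non-fibrillar collagens were led by type VI. The list of collagen VI, VIII, X and others summed to 14595 ± 2413 CPM, again lowest in replicate 1 (11846, against 16360 and 15579). *Col8a1*, a short-chain collagen, had 141, 383 and 419 CPM and *Col8a2* had 79.0, 149 and 166, so both were lowest in replicate 1. *Col10a1*, the collagen of hypertrophic cartilage, was at 0.948 ± 0.199 CPM. The FACIT collagens, which sit on the fibril surface, summed to 1548 ± 253 CPM and were led by *Col12a1* (854 ± 137 CPM, 231 ± 27.7 TPM), *Col16a1* (548 ± 143 CPM, 333 ± 70.0 TPM) and *Col14a1* (125 ± 9.59 CPM, 74.2 TPM). *Col9a1*, a FACIT collagen of cartilage, had 0.309 ± 0.188 CPM.

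Small leucine-rich proteoglycans, which bind fibrils and limit their width, summed to 22383 ± 1283 CPM, 66.6% of it from *Fmod*. Per length *Fmod* (18714 ± 2087 TPM) and *Dcn* (8543 ± 1266) stood above *Chad* (1637 ± 624), *Kera* (1439 ± 215), *Bgn* (1143 ± 128), *Prelp* (699 ± 346), *Ogn* (406 ± 38.8), *Lum* (202 ± 4.52) and *Aspn* (177 ± 37.8). *Fmod* exceeded *Lum*, a related proteoglycan that binds the same region of type I collagen, by 105, 84.8 and 88.4 times, a mean of 92.9 ± 11.04. *Dcn* exceeded *Bgn* by 7.59 ± 1.71 times, or by 5.58 ± 1.26 with the longest transcript. *Prelp* had 886, 540.1 and 374 CPM and *Chad* had 894, 521 and 552, both highest in replicate 1. Of the 15 members at 1 CPM or more, 9 were highest in replicate 1, against 0 of the 11 fibrillar collagens and 5426 of all 13772 genes at that level. The share of all genes depends on the scaling, since with total counts in place of TMM factors 8139 of them were highest in replicate 1. *Podnl1* was the lowest at 0.157 ± 0.0194 CPM, under the limit that a count of 0 allows (3 counts, 0.216, 0.268 and 0.220 CPM in the 3 libraries, for counting error only).

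Matricellular proteins and glycoproteins, which sit in the matrix and modulate cells and fibrils, summed to 86753 ± 3021 CPM, of which *Sparc* gave 70.1%. *Tnmd*, which encodes tenomodulin, a membrane protein of mature tenocytes, had 833, 1063 and 1074 CPM and 3016 ± 254 TPM. *Pcolce*, an enhancer of procollagen cleavage, had 1564, 2489 and 2408 CPM. *Cilp*, a glycoprotein known from cartilage and tendon, had 2939, 1487 and 1383 CPM, highest in replicate 1. Its relative *Cilp2* had 747, 772 and 668. *Comp*, a pentameric thrombospondin that links collagens, had 697, 659 and 637 CPM (1137 ± 117 TPM). *Ctgf* (1330 ± 204 TPM), *Matn2* (829 ± 108) and *Thbs2* (635 ± 27.1) followed. *Tnc*, which encodes tenascin-C, had 56.9 CPM in replicate 1 and 147 and 163 in the others. *Tnn*, *Tnr*, *Wisp3* and *Matn1* had no count in any of the 3 libraries.

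Large proteoglycans were sparse apart from *Prg4*, which encodes the lubricant lubricin and made up 85.8% of that list's 1339 ± 98.0 CPM. *Prg4* had 1288, 1169 and 989 CPM, and its gene overlaps *Tpr* on the other strand, so that reads of the 2 genes may not be separable where strand was not used. *Acan* (29.3 ± 8.95 CPM, 16.3 ± 4.32 TPM) and *Vcan* (36.2 ± 5.16 CPM, 10.3 ± 0.937 TPM), the large aggregating proteoglycans, stood far lower. *Bcan* had 13.7 CPM in replicate 1 and 53.3 and 83.2 in the others.

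Elastic fibre genes summed to 4994 ± 705 CPM, and all 20 were at 1 CPM or more. *Fbn1*, the fibrillin of microfibrils, had 1630, 1727 and 1469 CPM (549.7 ± 54.9 TPM). *Eln*, which encodes elastin, had 227 CPM in replicate 1 and 616 and 551 in the others, and *Mfap4*, a microfibril-associated protein, had 358 against 933 and 897. Both were thus lowest in replicate 1, while *Fbn1* was not. Basement membrane genes summed to 4781 ± 352 CPM and were led by *Hspg2*, which encodes perlecan (1567 ± 191 CPM, 451 ± 44.1 TPM), *Lamb2* (385 ± 52.8 TPM), *Col15a1* (366 ± 51.3 TPM) and *Nid1* (291 ± 36.9 TPM). *Col4a1* to *Col4a2*, the chains of the common type IV collagen, stood at 0.915, 0.846 and 0.941, a mean of 0.901 ± 0.0488, and *Lamb1* to *Lamc1* at 0.357 ± 0.0415 (0.564 ± 0.0656 with the longest transcript). *Lama1*, the laminin chain of embryonic basement membranes, had 1 count in 1 library.

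Genes that process and crosslink collagen summed to 13913 ± 1759 CPM, with 12083 in replicate 1 and 14063 and 15592 in the others. With TMM scaling, though not to this extent with total counts, 25 of the 32 members at 1 CPM or more were lowest in replicate 1. Of all 13772 genes at that level, 5226 were. *Lox*, the lysyl oxidase that starts crosslinking, was instead highest in replicate 1 with 4173, 2948 and 3563 CPM. *Loxl2*, its relative, had 969, 1597 and 2375, *Serpinh1*, the collagen chaperone HSP47, had 927, 1530 and 1574, and *P4ha1*, a catalytic subunit of prolyl 4-hydroxylase, had 342, 638 and 756. Per length *Lox* (3162 ± 726 TPM) and *Serpinh1* (2263 ± 502) stood above *Loxl2* (1260 ± 499), *P4hb* (1102 ± 182), *Bmp1* (865 ± 104) and *Fkbp10* (735 ± 75.6). Isoforms of the hydroxylases differed in level, *P4ha1* at 575 ± 189.9 TPM against *P4ha2* at 4.73 ± 0.988, and *Plod1* at 244 ± 22.0 against *Plod2* at 7.78 ± 0.506. *Plod1* and *Plod2* encode lysyl hydroxylases, of which the second acts on telopeptides.

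Matrix proteases and their inhibitors were a smaller group, at 5196 ± 194 CPM. *Timp2*, an inhibitor of metalloproteinases, had 1645, 1205 and 1134 CPM (1424 ± 387 TPM). Among proteases the highest per length were *Htra1* (729.7 ± 58.2 TPM), *Ctsl* (648 ± 137), *Htra3* (573 ± 93.8), *Ctsd* (549 ± 40.6) and *Ctsb* (408 ± 26.2). *Mmp14* (397 ± 37.0 TPM) and *Mmp2* (378 ± 33.2), a membrane metalloproteinase and the gelatinase it activates, stood near *Ctsk* (391 ± 7.96). The inducible collagenase *Mmp13* had 0.953 ± 0.396 CPM and *Mmp3* 1.80 ± 0.598 CPM, and *Mmp10* and *Mmp12* had no count.

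Transcription factors as a class held 5637 ± 98.3 CPM in all, less than *Angptl7* alone in every library. Of the 18 listed factors with a known place in tendon, 17 were counted and all of those were at 1 CPM or more. Per length those given here ran from *Klf4* (233 ± 33.2 TPM) and *Mkx* (164 ± 15.7) through *Scx* (121 ± 56.3), *Klf2* (88.9 ± 20.5), *Eya2* (86.0 ± 20.1), *Nfatc4* (85.8 ± 8.40), *Egr1* (47.5 ± 24.2), *Six2* (40.7 ± 2.40), *Six5* (39.4 ± 11.1), *Eya1* (34.9 ± 3.05) and *Eya3* (23.7 ± 3.40). *Foxp1* (13.7 ± 2.32 TPM), *Egr2* (12.5 ± 2.23), *Egr3* (8.57 ± 2.97) and *Six4* (4.28 ± 0.637) were lower, *Eya4* (19.6 ± 1.85) lay between these groups and *Tcf15* had no count.

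*Scx* encodes scleraxis, the basic helix-loop-helix factor that marks tendon progenitors and tenocytes, and it was among the least steady of these factors. It had 15.8 CPM in replicate 1, 36.7 in replicate 2 and 48.9 in replicate 3, so replicate 1 was below the others. *Egr1*, a zinc-finger factor that responds to mechanical load and acts on tendon collagen genes, had 51.0, 19.2 and 34.5 CPM, with the high value in replicate 1. *Mkx* varied less than either of them. Per length *Mkx* stood above *Scx* in replicates 1 and 2 but not in replicate 3, so their order was not settled. The wider list of tendon genes ended with *Ptx4*, a pentraxin, at 3.31, 9.48 and 4.48 CPM.

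Factors shared by many tissues stood as high or higher. Among Smad, TEAD, Gli, Tcf and other pathway factors, which summed to 3128 ± 43.2 CPM, the highest per length were *Atf4* (403 ± 27.2 TPM), a factor of the amino acid and stress response, *Nfix* (227 ± 28.1), *Ctnnb1* (212 ± 22.9), *Nfic* (159 ± 33.03) and *Foxo3* (107 ± 28.7). *Lef1*, a nuclear partner of beta-catenin, had 2 counts in all. AP-1 and immediate early factors summed to 650 ± 58.2 CPM. *Jun* had 133, 107 and 106 CPM, *Fosb* 89.8, 119 and 109, and *Fos* 123, 32.9 and 82.9, so *Fos* spread the most and did so with all 3 libraries apart. ETS factors summed to 347 ± 9.67 CPM with *Ets2* (50.6 ± 2.83 TPM) and *Elf2* (44.5 ± 4.25) at the top, and *Etv2* had no count.

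The osteochondrogenic factors, a list written for cartilage and bone, summed to 357 ± 27.4 CPM, but the defining members were low. *Sox9*, the master regulator of cartilage, had 1.87, 2.95 and 3.16 CPM. *Runx2*, that of bone, had 0.720, 0.626 and 0.441 CPM, and *Sp7*, which acts downstream of it, had 0.432, 0.0895 and 0.294. The sum was made up by *Zfp521* (92.0 ± 8.62 CPM), *Mef2d* (88.1 ± 15.3), *Mef2a* (50.2 ± 5.86) and *Twist1* (27.7 ± 4.15 CPM, 70.7 ± 7.31 TPM), of which *Zfp521* and *Twist1* are known to restrain Runx2.

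Hox genes, which give cells of the trunk and limbs their position along the body, had their highest sums in the posterior paralogue groups. Of 39 Hox symbols, 27 were at 1 CPM or more, and the sum was 255 ± 33.8 CPM. By paralogue group, groups 1 to 4 summed to 30.8 ± 2.51 TPM, groups 5 to 8 to 63.0 ± 5.43, groups 9 and 10 to 143 ± 23.1 and groups 11 to 13 to 290 ± 28.8. The highest were *Hoxc12* (189 ± 24.2 TPM), *Hoxb9* (56.4 ± 25.03), *Hoxb13* (52.7 ± 3.34) and *Hoxc10* (50.4 ± 0.467). Most of the sum of groups 11 to 13 thus came from *Hoxc12*, and without it these groups would lie below groups 9 and 10. *Hoxb9* had 17.6, 38.0 and 51.2 CPM, lowest in replicate 1. *Hoxd13* (1 count) and *Hoxd11* (3 counts in all) were at the floor, so the posterior genes of the D cluster did not follow those of the B and C clusters. *Mkx* belongs to the TALE homeobox family, whose other members summed to 141 ± 19.1 CPM, with *Pbx2* (33.4 ± 1.49 TPM) and *Pknox2* (28.6 ± 6.61) among the highest. Both were below *Mkx* in every library.

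The receptor class summed to 12401 ± 264 CPM, which includes 2955 ± 311 CPM of surface markers of tendon cells, led by *Tnmd*, that are not all receptors. Receptors for collagen and matrix were led by *Itgb5* (325 ± 8.73 TPM), *Itgb1* (289 ± 17.6), the endocytic collagen receptor *Mrc2* (263 ± 26.7) and the syndecan *Sdc3* (237 ± 83.1). The ratio of *Itga11*, the alpha chain of the collagen receptor integrin alpha-11 beta-1, to *Itgb1* was 0.0629 ± 0.00964. *Itga10*, another collagen-binding alpha chain, had 131, 77.1 and 57.5 CPM (71.8 ± 35.2 TPM), against 22.3 ± 1.20 CPM (18.0 ± 1.72 TPM) for *Itga11*. *Ddr2*, a receptor kinase that binds fibrillar collagen, had 149 ± 17.6 CPM (73.4 ± 12.3 TPM).

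Receptor tyrosine kinases and their relatives summed to 2300 ± 105 CPM, and 40 of 42 were at 1 CPM or more. *Pdgfrl*, a secreted PDGF receptor-like protein, led with 548 ± 28.7 TPM. *Axl* (292 ± 62.7) and *Mertk* (113 ± 19.2), receptors for Gas6, and *Fgfr1* (151 ± 5.01) followed. *Fgfr1* had 285, 301 and 294 CPM. *Pdgfra* stood at 0.522 ± 0.0490 times *Pdgfrb*, although both were highest in replicate 1, at 122 and 207 CPM against 78.6 and 111 in replicate 3.

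Receptors of the TGF-beta family, a pathway that drives matrix synthesis in tenocytes, summed to 844 ± 61.9 CPM. *Tgfbr2*, the ligand-binding type II receptor, had 272, 316 and 257 CPM (144 ± 14.1 TPM), and *Tgfbr3*, the co-receptor betaglycan, had 331, 181 and 190.0 (150.3 ± 63.8 TPM). The signalling partner *Tgfbr1* was lower at 24.0 ± 1.79 TPM. *Bmpr1b* (58.8 ± 7.17 TPM) and *Acvrl1* (48.3 ± 7.47) were the leading type I receptors, and *Acvr1c* had 0.114 ± 0.139 CPM. The list of Wnt, hedgehog and Notch receptors summed to 3108 ± 185 CPM, of which *Lrp1*, a large endocytic receptor, gave 63.6%. *Lrp1* had 2190, 1947 and 1796 CPM but 464 ± 73.2 TPM. *Lrp5* (170.4 ± 23.8 TPM), *Smo* (142 ± 13.1), *Boc* (109 ± 23.5) and *Fzd1* (79.1 ± 3.49) came next, and *Lgr5* and *Fzd10* were below 1 CPM.

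G protein-coupled and channel receptors summed to 918 ± 26.3 CPM. *Npr2*, the receptor of C-type natriuretic peptide, led per length with 136 ± 9.74 TPM and had 155, 155 and 148 CPM. *Ackr3*, a scavenger of the chemokine Cxcl12, had 99.7 ± 27.7 TPM, *Npr1* 86.7 ± 10.2, the mechanically gated channel *Piezo1* 85.7 ± 4.78 and the lysophosphatidic acid receptor *Lpar1* 83.6 ± 2.02. These 4 overlapped in range. Surface proteins used to describe tendon cells summed to 2955 ± 311 CPM. After *Tnmd* came *Cd9* (696 ± 43.5 TPM), *Thy1* (669 ± 116), *Ly6a* (490.1 ± 95.1), *Gja1* (380.4 ± 47.3), *Tppp3* (306 ± 81.2) and *Cd34* (255 ± 38.7). *Cd44* (11.6 ± 1.27 TPM) was lower and *Prom1* was at 0.915 ± 0.393 CPM.

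The signalling class summed to 13943 ± 1047 CPM. This class includes the genes that respond to glucocorticoids and fasting (3705 ± 2283 CPM), most of which are not signalling molecules. The genes with the highest CPM in the class were *Fstl1*, *Txnip*, *Gnas*, *Igfbp5*, *Meg3* and *Tsc22d3*. Among TGF-beta and BMP ligands and modulators, *Fstl1*, a follistatin-like protein, had 1150, 1621 and 1366 CPM (1156 ± 140.2 TPM) and gave 55.7% of the list, and the BMP antagonist *Nbl1* had 553 ± 148 TPM. *Tgfb3* was the highest TGF-beta with 212, 201 and 209.7 CPM (255 ± 21.3 TPM), against 36.6 ± 4.69 TPM for *Tgfb1* and 26.9 ± 1.82 for *Tgfb2*. The values of *Tgfb3* did not overlap with those of the other ligands. *Bmp4* had 105 ± 19.3 TPM and *Bmp3* 71.2 ± 6.17. *Gdf5*, *Gdf6* and *Gdf7*, growth factors that drive tendon formation when supplied, were at 0.152, 0.0783 and 0.0725 CPM, and *Mstn*, which encodes myostatin, at 0.332. *Grem1* had no count.

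The Wnt list was led by an inhibitor. *Wif1*, which encodes a secreted Wnt inhibitor, had 509, 496 and 516 CPM (866 ± 58.6 TPM) and gave 56.7% of the list's 895 ± 48.7 CPM. *Dkk3* (180.2 ± 50.2 TPM) and the Wnt carrier *Wls* (98.1 ± 2.53) came next. *Sfrp5* (46.8 ± 12.0) and the highest ligand, *Wnt9a* (43.6 ± 9.64), were close per length. By mean CPM *Wnt9a* ranked above *Sfrp5*, so the order of these genes was not settled. *Wnt5a* had 4.91 ± 0.0951 TPM. *Wnt3*, *Wnt7a*, *Wnt7b*, *Wnt8b* and *Wnt9b* had no count, nor had *Rspo4* or *Dkk1*.

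The IGF axis and imprinted growth genes summed to 4853 ± 799 CPM. Of the 22 members at 1 CPM or more 18 were lowest in replicate 1, against 5226 of all 13772 genes at that level. The binding proteins *Igfbp6* (1936 ± 253 TPM), *Igfbp7* (772 ± 40.8), *Igfbp4* (712 ± 226) and *Igfbp5* (710.4 ± 167) stood above the growth factors they bind, *Igf2* (29.8 ± 13.8) and *Igf1* (17.6 ± 4.22). *Igfbp5* had 703, 1206 and 1214 CPM and *Igf2* had 17.3, 51.1 and 52.5, so both were lowest in replicate 1. *Gnas*, which encodes the stimulatory G protein alpha subunit, had 1018, 1216 and 1196 CPM, and its gene overlaps *Nespas* on the other strand.

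Among the ligands of FGF, PDGF, VEGF and angiopoietin-like families, *Angptl2* (289.9 ± 58.8 TPM), *Angptl4* (186 ± 199), *Csf1* (81.1 ± 8.53), *Fgf1* (63.2 ± 8.75), *Pdgfd* (60.0 ± 8.38) and *Pdgfa* (57.3 ± 14.1) were the highest. *Angptl4* had 307, 88.8 and 31.8 CPM, a spread as large as its mean. Chemokines and cytokines summed to 425 ± 116 CPM, of which *Cxcl14* gave 78.9% with 203, 427 and 374 CPM. *Il6* had 1 count in 1 library, and *Cxcl5*, *Cxcl9*, *Cxcl13*, *Ccl19* and *Tnfsf11* had none. Hedgehog and Notch ligands and modulators summed to 276 ± 53.4 CPM, led by the hedgehog co-receptor *Gas1* (234 ± 58.2 TPM), and *Shh* had 1 count. *Dusp1*, a phosphatase that ends MAP kinase signalling, led the feedback genes with 267, 139.7 and 171 CPM.

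Genes that respond to glucocorticoids and fasting were high in replicate 1. Their sum was 6290 CPM in replicate 1 and 2861 and 1963 in replicates 2 and 3. Of the 15 members 13 were highest in replicate 1, against 5426 of all 13772 genes at 1 CPM or more. Without replicate 1 the mean of the list fell from 3705 to 2412 CPM. *Txnip*, a regulator of glucose uptake, had 2859, 586 and 413 CPM, and its gene overlaps *Gm15441* on the other strand. *Pdk4*, a kinase that shuts pyruvate out of oxidation, had 60.1, 12.0 and 8.67. *Mt2*, *Mt1*, *Ddit4* and *Tsc22d3* had 424, 265, 304 and 754 CPM in replicate 1 and 159, 94.1, 141 and 365 in replicate 3.

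Housekeeping genes give a scale for these levels. Cytosolic ribosomal protein genes summed to 6177 ± 420 CPM, with *Rplp0* at 1200, 1243 and 1253 CPM (3076 ± 116 TPM). Many ribosomal proteins have pseudogene copies, so that their values depend on how reads with several matches were counted. Mitochondrially encoded genes summed to 7499 ± 1228 CPM for the 13 protein genes, and all 15 mitochondrial symbols held 0.814% ± 0.0895 of counts. *Vim* (2851 ± 251 TPM), *Eef2* and *Eef1a1* led the cytoskeletal and reference genes, and *Actb* had 409 ± 41.0 TPM. Genes of folding and secretion in the endoplasmic reticulum summed to 5710 ± 1158 CPM, with 4389 in replicate 1 and 6193 and 6547 in the others. Of these genes 33 of 42 were lowest in replicate 1, against 5226 of all 13772 genes at 1 CPM or more. With total counts the list did not keep this to the same extent, while the fibrillar collagens stayed low in replicate 1. Glycolytic enzymes summed to 1264 ± 189 CPM and nuclear genes of oxidative phosphorylation to 2041 ± 185. Genes of the cell cycle summed to 499 ± 22.9 CPM, 34.2% of it from the tubulin *Tubb5*. *Mki67*, a marker of dividing cells, had 9.57, 9.84 and 10.5 CPM and *Top2a* 6.62, 6.53 and 7.71.

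Markers of cells other than tenocytes were read from 16 lists. The Schwann cell and myelin list was the highest at 9446 ± 1337 CPM, with 7963, 9814 and 10561 in replicates 1, 2 and 3, and all 21 of its members were at 1 CPM or more. *Pmp22* had 1971, 1867 and 2308 CPM, *Mbp* 1501, 2100 and 2167 and *Prx* 511, 629 and 649.6. These encode structural proteins of the myelin sheath or, for periaxin, of its anchoring. Markers of the cell itself were lower, with *Sox10*, its lineage factor, at 37.9 ± 4.27 TPM, *S100b* at 50.9 ± 5.49 and *Ngfr*, a marker of immature Schwann cells, at 5.34 ± 2.11. Of this list 17 members were lowest in replicate 1, against 5226 of all 13772 genes at 1 CPM or more. Neuronal markers, in contrast, summed to 53.3 ± 14.6 CPM, 87.8% from *Map2*, and *Tubb3* (0.875 ± 0.447 CPM), *Nefl* (0.0778) and *Snap25* (0.133) were below 1 CPM.

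The chondrocyte list summed to 5136 ± 967 CPM, but 71.4% of it was *Col11a2*, and *Col11a2*, *Comp* and *Col2a1* belong to the matrix lists as well. The other markers of cartilage were divided, with more of them below the median of all symbols than above it. *Col2a1* had 435, 909 and 707 CPM, and *Pth1r* (62.6 ± 4.69 TPM), *Matn3* (41.8 ± 6.12), *Ucma* (27.9 ± 4.82) and *Acan* (16.3 ± 4.32) also stood above the median of all symbols, 7.74 TPM. *Hapln1* (4.93 ± 1.81 TPM), *Col9a2* (2.90 ± 0.761), *Sox9* (2.64 ± 0.565) and *Col9a3* (1.62 ± 0.776) stood below it. So did *Lect1* (1.60 ± 0.754), *Col10a1* (1.25 ± 0.248), *Ihh* (0.550 ± 0.383) and *Col9a1* (0.246 ± 0.144), and *Matn1* had no count. Osteoblast and osteocyte markers summed to 86.9 ± 7.80 CPM, 52.4% from *Spp1*, and *Bglap* (0.457 ± 0.228 CPM), *Ibsp* (0.9996 ± 0.616) and *Dmp1* (0.235 ± 0.0802) were below 1 CPM, while *Sost*, *Mepe*, *Fgf23* and *Dkk1* had no count. Osteoclast markers summed to 219 ± 24.7 CPM, 64.1% from *Ctsk*, which fibroblasts also express, and *Acp5* had 4.33 ± 0.230 CPM.

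Macrophage and leukocyte markers summed to 1088 ± 58.8 CPM, with 1156, 1051 and 1057 in the 3 libraries, and 29 of 30 were at 1 CPM or more. *Lyz2* had 251, 223 and 208 CPM (719 ± 111 TPM), *C1qb* 67.9, 64.3 and 58.3 (242 ± 30.7 TPM) and *Csf1r* 94.4, 90.7 and 97.9 (74.8 ± 5.54 TPM). *Fcgr3*, in contrast, ranged from 48.1 to 124 CPM and *Ptprc*, the pan-leukocyte antigen, had 5.03 ± 0.891 CPM. Lymphocyte and neutrophil markers summed to 27.7 CPM in replicate 1 and 4.74 and 2.35 in the others, a mean of 11.6 that fell to 3.55 without replicate 1, led by *S100a9* (6.84, 1.43 and 0.808), and *Cd3d* and *Cd3e* had no count. Mast cell markers were at 10.9 ± 1.82 CPM, 94.3% from *Kit*, while *Cpa3* had no count.

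Vessel markers were low. The endothelial list summed to 162 ± 12.4 CPM, with *Cdh5* at 6.13 ± 1.62 and *Pecam1* at 5.67 ± 0.846, and *Lyve1*, which lymphatic endothelium and some macrophages express, at 37.6 ± 12.0. The pericyte and smooth muscle list summed to 356 ± 29.0 CPM, 42.1% of it from *Pdgfrb*, which fibroblasts share. *Acta2* had 60.8, 92.4 and 84.5 CPM, while *Myh11* (2.21 ± 0.358) and *Cnn1* (0.0480) were low. Adipocyte markers summed to 501, 463 and 479 CPM through the lipid enzymes *Scd1* (169 ± 13.7) and *Fasn* (149 ± 27.1), but *Adipoq* (0.151 ± 0.0658), *Plin1* (0.0485) and *Cidec* (0.0240) were at the floor.

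A few lists of other tissues differed widely between the libraries. Skeletal muscle markers summed to 574, 182 and 406 CPM, with *Acta1* at 90.2, 6.62 and 41.1, *Myh1* at 114, 11.8 and 42.5 and *Ckm* at 24.8, 2.51 and 17.0, so replicate 2 had the least. Erythroid markers summed to 419 CPM in replicate 1 and 82.2 and 99.2 in the others, a mean of 200.1 that fell to 90.7 without replicate 1. *Hbb-bs* had 176, 34.7 and 46.9 CPM and *Hba-a1* 99.99, 28.003 and 12.4. The hemoglobin symbols *Hbb-b1* and *Hbb-b2* were listed at 0, and *Hbb-bs* and *Hbb-bt* are the adult beta-globin genes of the haplotype that C57BL/6 carries. Keratinocyte and hair genes summed to 29.8 CPM in replicate 1 and 178 and 235 in replicates 2 and 3. The hair follicle keratin *Krt71* had 0.144, 22.0 and 36.1 CPM and *Krt27* had 0, 9.13 and 12.9. *Krt1* of the epidermis had 1 count in 1 library. *Trp63* and *Sbsn*, which are not hair keratins, nevertheless ranked above *Krt25* and *Krt27* in this list by mean CPM. In all 3 lists the libraries differed by more than 2 times, so a mean over them describes no library well.

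**Figure D4:**
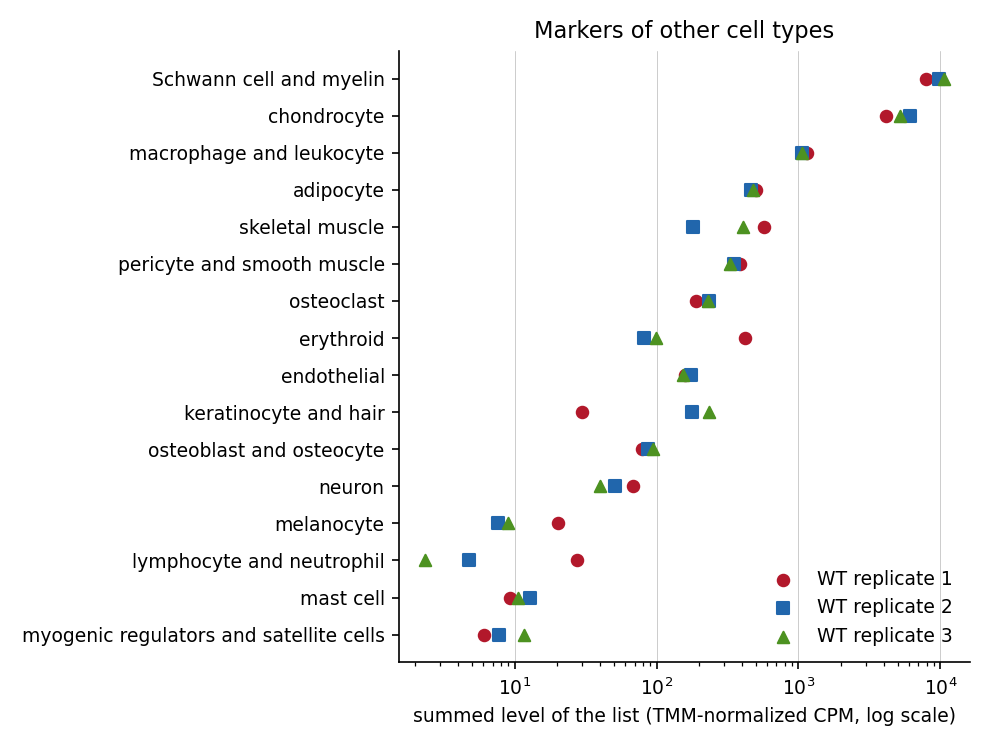
Summed level (TMM-normalized CPM, x axis, log scale) of each of 16 marker lists of other cell types, with 1 point for each of the 3 WT libraries. The Schwann cell and myelin list leads at 9446 CPM on average and macrophage markers lie close together, while the erythroid, keratinocyte and neutrophil lists show replicate 1 apart from the others.

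The remaining lists were low. Satellite cell markers summed to 8.53 ± 2.93 CPM, 80.9% from *Vcam1*, and *Pax7*, *Myf5* and *Myog* had no count. Melanocyte markers summed to 20.4 CPM in replicate 1 and 7.60 and 8.96 in the others, 86.3% from *Mitf*, and *Tyr* and *Mlana* had no count. Over all 16 lists, 183 of 330 symbols were at 1 CPM or more and 37 had no count in any WT library. The part that these cells take in the levels of the matrix and other genes was not tested.

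The median spread between libraries was larger than counting error at every level. Over 9965 genes with a mean of 5 CPM or more, the median CV was 13.6% (quartiles 8.37% and 20.9%), against 6.19% from counting alone. By level, the median CV was 20.5% for genes at 1 to 10 CPM, 12.9% at 10 to 100, 13.1% at 100 to 1000 and 15.8% above that, where counting gives 14.3%, 5.60%, 2.26% and 0.624%. The biological coefficient of variation that edgeR estimated over 13323 genes was 0.196.

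In 631 of the 9965 genes (6.33%) the highest library exceeded the lowest more than 2 times, and in 90 more than 4 times. In 82.1% of the 631, replicate 1 was the library farthest from the other pair, high in 235 genes and low in 283. Without replicate 1, only 53 genes differed by that much, against 510 without replicate 2 and 386 without replicate 3. Replicate 1 was the lowest library for 118 of the 207 matrix genes at 1 CPM or more and for 5226 of all 13772 genes at that level. These counts depend on the scaling, since with total counts in place of TMM factors they were 90 and 3092. Of the 53 lists with 3 or more members at 1 CPM, 14 had their sum and at least 66.7% of those members lowest in replicate 1, and 4 had them highest. The 7 low lists that kept this with total counts were the fibrillar, FACIT and other collagens, the IGF axis, the Schwann cell and myelin genes, the hair genes and the chondrocyte markers. The 7 that did so with TMM or RLE scaling alone were collagen processing, the endoplasmic reticulum, tendon surface markers, nuclear oxidative phosphorylation, mitochondrially encoded genes, and osteoblast and osteoclast markers. The 4 high lists, which kept this with each scaling, were the fasting response, skeletal muscle, erythroid, and lymphocyte and neutrophil genes.

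**Figure D5:**
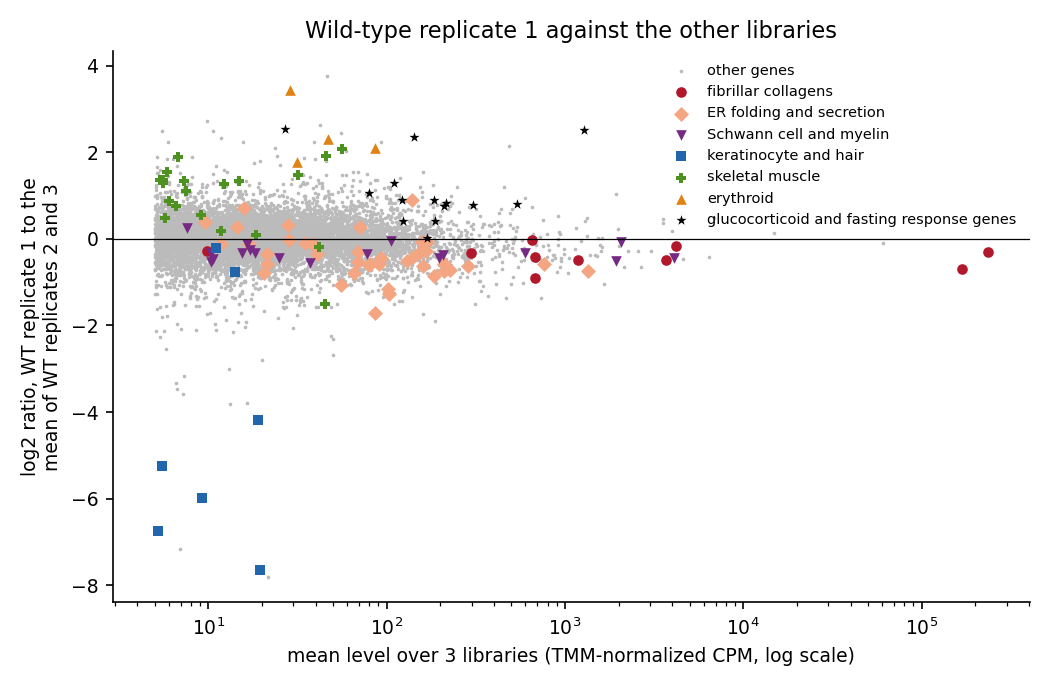
Log2 ratio of WT replicate 1 to the mean of replicates 2 and 3 (y axis) against mean level over the 3 libraries (TMM-normalized CPM, x axis, log scale) for genes at 5 CPM or more with a count in every library, with the gene lists named in the legend marked. Fibrillar collagens, genes of folding and secretion, myelin and hair genes lie mostly below 0, and fasting response, skeletal muscle and erythroid genes lie mostly above it.

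The 10 largest ratios of highest to lowest library were those of *Xist*, *A730090H04Rik*, *Krt71*, *5430421N21Rik*, *Krt34*, *Myh4*, *Krt25*, *S100a3*, *Tchh* and *Galnt15*. This ranking took genes at a mean of 5 CPM or more with a count in every library. *Ddx3y*, *Eif2s3y*, *Krt27*, *Krt33a*, *Krt33b* and *Krt81* were at that level but had no count in at least 1 library, so they have no such ratio. *A730090H04Rik* had 64.6 CPM in replicate 2 and 0.144 and 0.441 in replicates 1 and 3. *Galnt15*, which encodes a glycosyltransferase, had 121, 11.3 and 6.46 CPM and was high in replicate 1. *Krt34*, *Krt25*, *S100a3* and *Tchh* are hair genes and were between 0.0720 and 1.51 CPM in replicate 1. *Myh4*, a fast muscle myosin, had 12.8, 0.268 and 22.3 CPM.

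*Xist*, the RNA that silences an X chromosome in female cells, had 1866 counts in replicate 1, 1377 in replicate 2 and 1 in replicate 3. The Y-linked genes *Ddx3y*, *Eif2s3y*, *Kdm5d* and *Uty* had 301, 299, 160 and 96 counts in replicate 3 and none in replicates 1 and 2. The labels give no sex. *Kdm6a*, the X-linked relative of *Uty*, had 27.0, 17.9 and 11.5 CPM. Replicates 2 and 3, which differed in these genes, were the closest pair of libraries over the whole transcriptome.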

How the data were processed

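Per the labels and the article's methods, tail tendons were minced, RNA was taken with Trizol, and libraries were made with the Ion Total RNA-Seq Kit v2 and sequenced on an Ion Proton. The authors removed adaptors and poor reads, aligned to mm9 and deposited read counts for each gene symbol, as whole numbers that were not scaled. The counting program, its annotation and its use of strand are not given in the sources used here. Counting of reads with several matches affects genes with near-identical copies.

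The 3 WT columns were used, and 0 columns stayed unmatched. CPM was computed with TMM factors of edgeR 4.0.16 in R 4.3.3 on the WT libraries (1.098, 0.947 and 0.961), and the coefficient of variation with estimateDisp and an intercept. TPM used the joined exons of each symbol in the GENCODE annotation of mm9, read with Python 3.11.15. A length was found for 18578 of 23593 counted symbols (17671 by symbol, 892 by a RefSeq synonym and 15 by an older name), which hold 98.9% of counts. Exon sequences were read from that genome. Depth was 11798036 to 14160301 counts, so 3 counts correspond to 0.216, 0.268 and 0.220 CPM. Intervals and floors cover counting error only.

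Values are the mean ± SD over 3 libraries, with no test. Genes were taken from 57 lists holding 1390 symbols, of which 1359 were in the table. The text names the 20 highest genes on each scale, the 5 markers, the highest and lowest members of each list and those with no count, and all tendon genes. It also names the 10 least steady genes at 5 CPM or more with a count in every library, genes at that level with no count in a library, chain pairs, and *Xist* and Y-linked genes. Some further list members were picked with their values in view. A few genes that this rule covers are not reported here, and they stay in the sums and counts. The members and lists were chosen with earlier results of these data known. Estimation of the spread was tested on simulated data. Alternatives were RLE scaling with size factors of DESeq2 1.42.0, total counts, factors of all 6 libraries, the longest transcript, other filters and leaving out each replicate.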

Additional observations from a re-analysis of the deposited data

How the results depend on the processing

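No paired analysis was possible because the report describes 1 group and makes no test. The share of the 3 most counted genes was 26.1% per length, against 46.3% of counts. The number of genes that hold 50% of the counts was 8 in the mean profile, 112 per length, and 5 to 11 with each replicate left out in turn (5 without replicate 1 and 11 without replicate 2 or 3). The biological coefficient of variation was 0.196 with all libraries and 0.113 to 0.231 with each left out in turn, lowest without replicate 1. With the longest transcript in place of joined exons, the ratio of *Col1a1* to *Col1a2* was 0.641 in place of 1.32 and that of *Col5a1* to *Col5a2* was 0.812 in place of 1.16, so both turned. Of the other ratios, 6 moved by more than their SD and 4 did not. The summed levels of all 57 lists moved by less than their SD with RLE scaling and with total counts. This says little, since the RLE factors (1.100, 0.943 and 0.964) were close to the TMM factors. A mean over the 3 libraries also changes little when factors centre on 1. Leaving out 1 replicate moved 3 of them by more than 1.5 times, each without replicate 1 (glucocorticoid and fasting response 3705 to 2412 CPM, erythroid 200.1 to 90.7, lymphocyte and neutrophil 11.6 to 3.55). Lists low in replicate 1 numbered 14 with TMM or RLE scaling and 7 with total counts, and lists high in it 4 and 10. With TMM factors of all 6 libraries 22 of the 57 sums moved by more than their SD and 35 did not. Those factors are lower in all 3 WT libraries, which raises every sum by a similar proportion. Whether a list moved by more than its SD therefore depended on the size of that SD. Genes at a mean of 1 CPM or more numbered 13772, 13771 with RLE scaling or total counts, 12941 when every library had to reach that level and 13733 to 13780 with each replicate left out. The alternatives for the spread, for lists apart in replicate 1 and for glycine codons were chosen after seeing the data: glycine made up 17.5% ± 0.908 of codons with the longest transcript. Depth limits genes at 1 to 10 CPM most, where counting alone gives a median CV of 14.3% beside 20.5% between libraries.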

Other observations

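Apart from protein-coding genes, which held 97.3% of counts, a few other RNAs were abundant. They were chosen after their values were seen. *Neat1*, the long noncoding RNA of nuclear paraspeckles, had 1551, 1099 and 1245 CPM, a mean of 1298 ± 231. *Meg3*, an imprinted noncoding RNA, had 704, 764 and 802 CPM, and *Rian* of the same cluster had 65.7, 119.6 and 186. The gene of *Meg3* overlaps *Gm17639* on the other strand. *Miat* had 183 ± 30.6 CPM and *Malat1* 147 ± 25.4. The mitochondrial ribosomal RNAs *Rnr2* and *Rnr1* had 455 ± 39.95 and 223 ± 21.5 CPM. Long intergenic noncoding RNAs as a class held 0.191% of counts.

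Symbols annotated as pseudogenes held 1.004% of counts. *Gm13456* had 946 ± 186 CPM (2850 ± 421 TPM) and *Tpt1-ps3* had 502 ± 52.4 CPM (3017 ± 233 TPM), against 49.996 ± 3.22 CPM (86.9 ± 4.86 TPM) for *Tpt1* itself. *Gapdh*, a common reference gene with many processed pseudogenes, was counted at 0.360, 0.895 and 1.40 CPM, although *Aldoa* and *Pkm* of the same pathway had 276 ± 47.4 and 279.8 ± 38.4 CPM. How the counting treated reads that match several copies is not given in the sources used here, so these values are uncertain. *ND6*, the mitochondrial gene on the strand opposite to the other protein genes, had 0.408 ± 0.290 CPM, against 813 ± 83.5 for *ND5*.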
